A study of Mus musculus with 3 samples.

Results

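Genes of the Schwann cell lineage and of satellite glia were followed through RNA from Ret-EGFP sorted cells of dorsal root ganglia of mouse embryos; these ganglia hold the cell bodies of sensory neurons. The set was given as a list of 34 gene symbols and was not picked by a threshold on these values. It was, however, chosen with earlier results of these data known. Shares of members set beside shares of all genes are therefore descriptions and no test of the set. A row was found for 33 of the 34 among the 41388 genes in the files. The antisense transcript Gfra4os matched no row, so no value is given for it. Its partner Gfra4, a receptor subunit for GDNF-family ligands, stood at 3.54 ± 1.16 TPM (SD, n = 3). TPM, the length-corrected transcript level used here, is the count of a gene per unit of its length, scaled to a common sum in every library.

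The study has 1 group and no control population. All embryos were C57BL/6 at 14.5 days post coitum, and ganglia of levels T11 to S1 were dissociated and sorted for EGFP. The genotype label writes the reporter as Tg(Ret-EGFP)SJ, whereas the design text describes EGFP inserted at the Ret locus in heterozygous embryos, so by that text all libraries come from embryos with an altered Ret allele. RNA was pooled into 3 libraries. Library A held 100 ganglia of 5 embryos (3 male and 2 female), library B 100 ganglia of 6 embryos (2 male and 4 female), and library D 80 ganglia of 4 embryos (3 male and 1 female). Total counts were 20181558, 20355302 and 29061086 in A, B and D. Each library is a separate pool in the labels, so an SD over the 3 libraries mixes differences between embryos with technical noise.

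Neural crest cells that settle along growing nerves become Schwann cell precursors, then immature Schwann cells, and later myelinating or non-myelinating Schwann cells. Crest-derived cells that stay in the ganglion wrap sensory neuron cell bodies as satellite glia. Sox10 is kept throughout this lineage. Fabp7 and Dhh are used as markers of the precursor stages, while Egr2 and Pou3f1 are transcription factors that switch on the myelin genes. The gate selected cells in which the Ret reporter was active, and Ret is known in these ganglia mainly from neurons.

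The sorted material was neuronal by its markers. All 12 sensory neuron genes, among them Tubb3 (14755 ± 2579 TPM), exceeded 1 TPM in every library, with a list median of 1067 ± 53.9 TPM. The median of the 33 members was 2.80 ± 1.12 TPM. By the mean of the within-library log2 ratios, it was 400.3-fold lower than the neuronal median (8.65 ± 0.61, the same sign in 3 of 3 libraries). This ratio depends on which genes each list holds, since 13 of the 33 members averaged under 1 TPM. Not all members are glial markers, as they include Gas7, a gene of growing neurites, and the Lgi4 receptor Adam22 with its relative Adam23. In RNA from a bulk sort, fewer cells of a type and less RNA per cell cannot be told apart. Mitochondrial genes took 1.14% to 2.75% of counts, and hemoglobin genes at most 0.0122%.

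Promoters are shown first for 5 genes whose TPM ranged at least 2-fold over the 3 libraries. None of the 5 passed the adjusted test between libraries described below. They were taken because members that were high in the same library could be compared by their upstream letters. A member qualified if its TPM differed at least 2-fold between libraries and if its one RefSeq start was also the start of the deposited gene. All 5 had 100 or more counts in their highest library. Sox2, with a 6.35-fold range on at most 65 counts, is not shown. Each line gives the 250 bases before the start, 5′ to 3′ on the strand of the gene, from RefSeq on build GRCm38.p6. Capitals mark ATGCAAAT, the octamer that POU factors such as Pou3f1 and Pou3f2 can bind. The first 3 genes were highest in library B. These are Moxd1 (chr10:24223267-24223516, plus strand), Mal (chr2:127656696-127656945, minus strand) and Prx (chr7:27499074-27499323, plus strand). The other two were highest in library A, namely Ptprz1 (chr6:22875252-22875501, plus strand) and Adam22 (chr5:8368161-8368410, minus strand).
Moxd1: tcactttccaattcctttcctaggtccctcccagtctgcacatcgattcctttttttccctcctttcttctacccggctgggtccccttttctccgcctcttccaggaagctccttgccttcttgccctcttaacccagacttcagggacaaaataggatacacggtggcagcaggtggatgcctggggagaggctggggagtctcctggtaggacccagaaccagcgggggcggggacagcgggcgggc
Mal: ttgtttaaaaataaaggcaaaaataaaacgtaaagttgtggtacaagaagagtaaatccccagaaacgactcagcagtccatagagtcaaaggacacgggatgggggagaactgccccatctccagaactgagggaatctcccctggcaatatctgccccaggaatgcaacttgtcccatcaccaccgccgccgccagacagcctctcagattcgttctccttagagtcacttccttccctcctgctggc
Prx: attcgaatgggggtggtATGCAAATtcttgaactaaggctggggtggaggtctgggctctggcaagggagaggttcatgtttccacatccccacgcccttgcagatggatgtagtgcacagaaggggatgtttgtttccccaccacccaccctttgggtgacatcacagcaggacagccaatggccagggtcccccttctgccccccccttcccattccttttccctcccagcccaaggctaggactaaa
Ptprz1: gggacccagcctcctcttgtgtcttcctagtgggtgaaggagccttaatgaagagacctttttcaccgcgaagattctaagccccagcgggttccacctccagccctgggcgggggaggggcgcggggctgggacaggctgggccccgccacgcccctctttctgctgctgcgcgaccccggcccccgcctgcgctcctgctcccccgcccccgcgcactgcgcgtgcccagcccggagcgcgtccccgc
Adam22: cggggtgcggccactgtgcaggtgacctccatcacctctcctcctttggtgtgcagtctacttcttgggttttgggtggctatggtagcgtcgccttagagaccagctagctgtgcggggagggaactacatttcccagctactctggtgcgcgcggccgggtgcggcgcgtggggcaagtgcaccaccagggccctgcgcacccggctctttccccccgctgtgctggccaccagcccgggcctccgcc

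The letters ACAAAG or ACAATG, forms of the SOX core, were in none of these 5 stretches on either strand. The octamer was in Prx, once, and in none of the other 4. No word searched is contained in another, though matches may share bases. The AP-2 letters GCCNNNGGC, which read the same on both strands, were found at 2 places in Prx and 1 in Ptprz1. Over 32851 RefSeq promoters cut to the same 250 bases, SOX letters occurred in 25.2%, the octamer in 1.60% and the AP-2 letters in 13.7%. RefSeq promoters were at hand for 26 of the 33 members, in 38 windows, and 6 windows (15.8%) held SOX letters. They belonged to Apoe, Cnp, Gpm6b, Mag (2 windows) and Sox2. No entry was at hand for Sox10, Tfap2c, Pou3f1, Mbp, Pmp2, Lgi4 and Gas7. A letter match describes the sequence and does not show binding, and these windows leave out distant enhancers.

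The set was uneven. At a mean of at least 1 TPM stood 20 of the 33 genes (60.6%), against 33.6% of all 41388 genes. Of these 20, 13 reached 10 TPM and 2 reached 100 TPM, and 16 were at 1 TPM or more in every library. The 41388 genes also include kinds that the 33 do not, such as the microRNA gene Mir8114 without a count. The shares at 1 TPM therefore describe unlike sets. The members were ordered here by role: crest and early lineage, precursor, satellite glia, myelin regulators, myelin structure and the Lgi4 pathway.

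**Figure D1:**
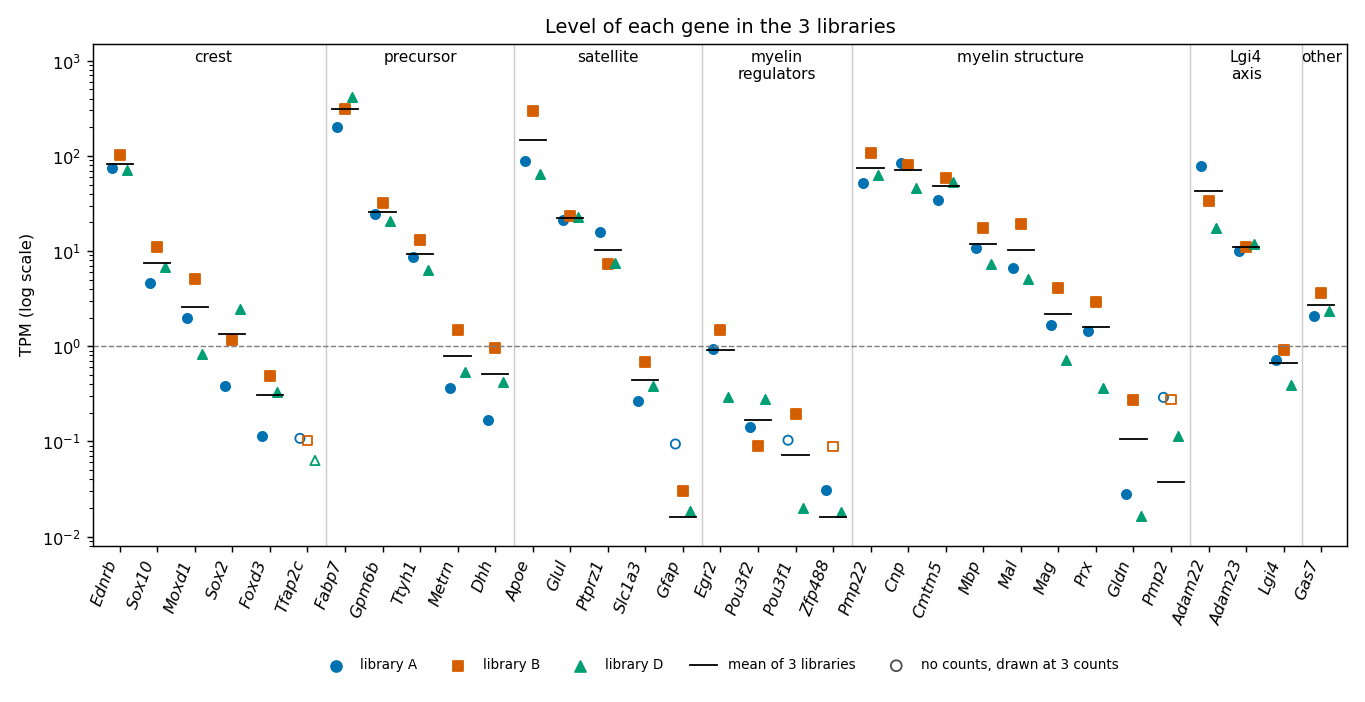
Level of each of the 33 genes in TPM (vertical log axis) in libraries A, B and D, grouped by role and ordered within a role by mean. Bars are means of the 3 libraries, the dashed line is 1 TPM, and open symbols mark libraries without a count, drawn at the 3 counts that a count of 0 allows. Fabp7 and Apoe lie above 100 TPM on average, while none of the 4 myelin regulators reaches a mean of 1 TPM.

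Among the crest genes, Ednrb was the highest and the transcription factors were low. Ednrb encodes the endothelin receptor B of crest cells (chromosome 14, 103814625 to 103844173, minus strand). Its levels were 73.9, 102 and 70.7 TPM in A, B and D. Sox10, the transcription factor that defines crest and all peripheral glia (chromosome 15, 79154913 to 79164490, minus strand), had 4.67, 11.1 and 6.86 TPM from 96, 240 and 241 counts. Library A was lowest and library B highest for Sox10. Within each library Ednrb stood above Sox10, by 11.4-fold on average (log2 ratio 3.52 ± 0.41, 3 of 3 libraries).

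Sox2, a factor of immature cells, had 0.38, 1.16 and 2.44 TPM in A, B and D, from 6, 19 and 65 counts. It was highest in D, unlike Sox10. Foxd3, a forkhead factor of migrating crest, rested on 2, 9 and 10 counts, or 0.11, 0.49 and 0.33 TPM. Tfap2c, an AP-2 factor, was without a count throughout, and the 3 counts that this allows would be 0.108, 0.102 and 0.0630 TPM in A, B and D. These limits and all others given here cover counting error only. Moxd1, a monooxygenase related to dopamine beta-hydroxylase, had 1.98, 5.03 and 0.82 TPM. It was highest in B and lowest in D.

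The precursor genes were led by Fabp7, which encodes a brain-type fatty acid binding protein (chromosome 10, 57784881 to 57788450, plus strand). Its levels were 200, 313 and 418 TPM in A, B and D, or 310 ± 109 TPM, at rank 574 of all 41388 genes. The membrane glycoprotein gene Gpm6b had 24.4, 31.9 and 20.9 TPM. The tweety-family membrane gene Ttyh1 had 8.63, 13.0 and 6.37 TPM. Both were highest in B and lowest in D, whereas Fabp7 was lowest in A and highest in D.

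Dhh, the hedgehog ligand that Schwann cells send to the nerve sheath, had only 3, 18 and 13 counts, or 0.17, 0.96 and 0.43 TPM. Metrn, which encodes the secreted protein meteorin, had 4, 17 and 10 counts and a mean of 0.798 ± 0.604 TPM. Of the exonic bases of Metrn, 59.9% overlap an antisense gene, and the use of strand in counting is not given in the sources used here. Counts of Dhh and Metrn were highest in B, at depths too low for the count filter described below with the libraries.

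Among satellite glia genes, the lipid carrier gene Apoe (chromosome 7, 19696109 to 19699166, minus strand) had the largest SD in TPM. It stood at 88.7, 293 and 63.8 TPM in A, B and D, from 1331, 4622 and 1634 counts. Library B held over 3 times the level of either other library. Glul, which encodes glutamine synthetase, was nearly level at 21.3, 23.4 and 22.6 TPM (mean 22.4 ± 1.07 TPM). Slc1a3, the glutamate transporter GLAST, stood at 0.26, 0.68 and 0.38 TPM. Within libraries Slc1a3 lay below Glul, with a log2 ratio of -5.78 ± 0.62, and Apoe lay 5.28-fold above it (log2 ratio 2.40 ± 1.12), each in 3 of 3 libraries.

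Ptprz1, a receptor-type tyrosine phosphatase (chromosome 6, 22875502 to 23052916, plus strand), had 15.7, 7.36 and 7.54 TPM, with library A high and B and D alike. Gfap, the intermediate filament gene of mature glia, had 0, 1 and 1 counts. The satellite group therefore held a well expressed lipid carrier and glutamine synthetase beside a transporter under 1 TPM and a filament gene at the counting floor.

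The 4 myelin regulators were all under 1 TPM on average. Egr2, the zinc finger factor that drives myelination, had 0.93, 1.48 and 0.30 TPM in A, B and D, from 24, 40 and 13 counts. Pou3f1, the POU factor that acts before it, had 0, 6 and 1 counts. Pou3f2, a related POU factor, had 6, 4 and 20 counts, and Zfp488, a zinc finger gene known from oligodendrocytes, had 1, 0 and 1. Sox10 was above Egr2 in 3 of 3 libraries, by 9.56-fold on average (log2 ratio 3.26 ± 1.15).

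Genes for myelin structure ranged from well expressed to the counting floor. Pmp22, a membrane protein gene of peripheral myelin, had 52.5, 107 and 62.8 TPM in A, B and D. Cnp, which encodes a cyclic nucleotide phosphodiesterase of myelinating cells, had 84.8, 79.6 and 46.4 TPM. The MARVEL-domain gene Cmtm5 had 34.15, 59.2 and 52.9 TPM. Pmp22 and Cmtm5 were lowest in A, whereas Cnp was highest there. Of the exonic bases of Cnp, 4.23% overlap the antisense gene Dnajc7, which had 6801, 5713 and 8931 counts, against 2339, 2307 and 2187 for Cnp.

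Mbp, the gene for myelin basic protein, had 10.8, 17.6 and 7.26 TPM in A, B and D. Mal, a proteolipid gene, had 6.65, 19.4 and 5.06 TPM. Both were highest in B and lowest in D. Mag, an adhesion molecule facing the axon, had 1.68, 4.07 and 0.72 TPM, from 52, 132 and 38 counts. Prx, which encodes periaxin (chromosome 7, 27499324 to 27520214, plus strand), had 1.44, 2.93 and 0.36 TPM, from 61, 130 and 26 counts. The order B, A, D was shared by Mbp, Mal, Mag and Prx. Gldn, the node protein gliomedin, had 1, 10 and 1 counts, and Pmp2, a fatty acid binding protein of peripheral myelin, had 0, 0 and 2.

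On the TPM scale, Pmp22 and Cnp stood above Mbp, and Mag below it, in every library. Pmp22 was 6.33-fold above Mbp (log2 ratio 2.66 ± 0.42), Cnp was 6.10-fold above it (2.61 ± 0.40), and Mag was below it (-2.71 ± 0.61). Fabp7, grouped here with the precursor genes, stood 26.7-fold above Mbp (4.74 ± 0.96). Each ratio had the same sign in 3 of 3 libraries.

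Lgi4 encodes a secreted Schwann cell protein that acts through the receptor Adam22, and Adam23 is a related receptor. Lgi4 had 0.72, 0.90 and 0.39 TPM in A, B and D, and 44.9% of its exonic bases overlap the antisense gene Fxyd3 (6, 23 and 13 counts). Adam22 (chromosome 5, 8072352 to 8368160, minus strand) had 77.6, 33.6 and 17.4 TPM, highest in A and lowest in D. Adam23 had 10.04, 10.99 and 11.89 TPM, nearly level. The log2 ratio of Lgi4 to Adam22 was -5.82 ± 0.82 and that of Adam23 to Adam22 was -1.70 ± 1.20, each negative in 3 of 3 libraries. Gas7, a cytoskeletal gene of growing neurites, had 2.06, 3.65 and 2.34 TPM.

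Of 20 gene pairs listed for comparison, 11 could be tested, with 10 or more counts for each gene in all 3 libraries. The exact permutation test that flips the sign of each library's ratio (two-sided) cannot give a p below 0.25 with 3 libraries, so no pair could pass 0.05. All 11 pairs kept 1 sign in 3 of 3 libraries and stood at that smallest exact p of 0.25 (adjusted over the 11 pairs, 0.25). In the order of mean levels, the 21 genes that passed the count filter formed 20 neighbouring pairs. Ranges over the libraries overlapped in 18 of them, and only the steps Glul over Mbp and Sox10 over Gas7 had separate ranges. Compared within libraries, the upper gene was higher in 3 of 3 libraries at 6 of the 20 steps.

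The groups were contrasted by the ratio of their median TPM within each library. Crest medians were 1.18, 3.09 and 1.63 TPM in A, B and D, precursor medians 8.63, 13.0 and 6.37 TPM, and satellite medians 15.7, 7.36 and 7.54 TPM. Medians of the 13 myelin genes were 1.44, 2.93 and 0.36 TPM. Precursor genes exceeded myelin genes 7.77-fold (log2 ratio 2.96 ± 1.05) and satellite genes exceeded them 8.31-fold (3.05 ± 1.57), each in 3 of 3 libraries. The precursor ratio turned to -0.15 without Gpm6b, Ttyh1, Cnp, Mal and Apoe, which other cells of a ganglion are known to express. For crest over myelin the log2 ratio was -0.29, 0.08 and 2.18 in A, B and D, so the mean of 0.66 ± 1.33 was within its spread and its sign was not shared.

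These medians are single genes in groups of odd size: Ttyh1 for the precursor group, Ptprz1 for the satellite group and Prx for all myelin genes, in each library. The contrast rested on counting the regulators as myelin. Myelin structure genes alone had medians of 6.65, 17.6 and 5.06 TPM, against 0.0862, 0.143 and 0.148 TPM for the regulators, a 68.7-fold ratio (log2 6.10 ± 0.94). Set against the structure genes alone, the mean log2 ratio was 0.09 for precursor genes, 0.19 for satellite genes and -2.21 for crest genes. Precursor and satellite medians differed by less than their spread (log2 ratio -0.10 ± 0.85), and the precursor median was above the crest median in 3 of 3 libraries (2.30 ± 0.49).

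Other genes of the lineage, on a list that the set does not hold, were also unevenly expressed. Of 18 such genes 12 reached 1 TPM on average, with a list median of 1.84 ± 0.560 TPM. The neurotrophin receptor gene Ngfr, also a gene of sensory neurons, was highest at 1785, 557 and 453 TPM. S100b, a calcium-binding protein gene of glia and neurons, stood at 343 ± 92.5 TPM, and Serpine2, a protease inhibitor gene, at 122 ± 36.7 TPM. The gap junction gene Gja1 averaged 20.8 ± 7.66 TPM, the lysophosphatidic acid receptor gene Lpar1 10.02 ± 2.61 TPM, and Erbb3, the neuregulin receptor gene on which Schwann precursors depend, 6.09 ± 2.44 TPM. Under 1 TPM on average were Sox9, Tfap2a, Tfap2b, Sox5, the satellite glia potassium channel gene Kcnj10 and Gjb1.

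Markers of other cells that a ganglion or the gate could hold were far below the neuronal genes, but not all were below the members. The list median was 23.7 ± 17.5 TPM for erythroid genes, against 2.80 TPM for the 33 members. It was 2.40 ± 1.31 TPM for mesenchyme genes and 1.02 ± 0.438 TPM for macrophage genes. Of 8 central glia genes, 6 had no count in any library, namely Olig1, Olig2, Nkx2-2, Sox21, Nkx6-1 and Nkx6-2. Of the 8, Aqp4 was the highest, at 1.03 ± 0.219 TPM. Summed TPM of 10 macrophage genes was 30.9, 16.9 and 13.5 in A, B and D, with C1qb highest (8.09 ± 3.12 TPM) and no gene at 0 throughout. Summed TPM of 10 mesenchyme genes was 19.3, 71.1 and 19.5, with Col1a1 highest and Twist2 without a count. Median TPM averaged 0.169 for melanocyte genes (Tyr without a count) and 0.357 for autonomic crest genes. Summed TPM of 6 endothelial genes was 4.86, 4.21 and 3.92, led by Pecam1.

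**Figure D2:**
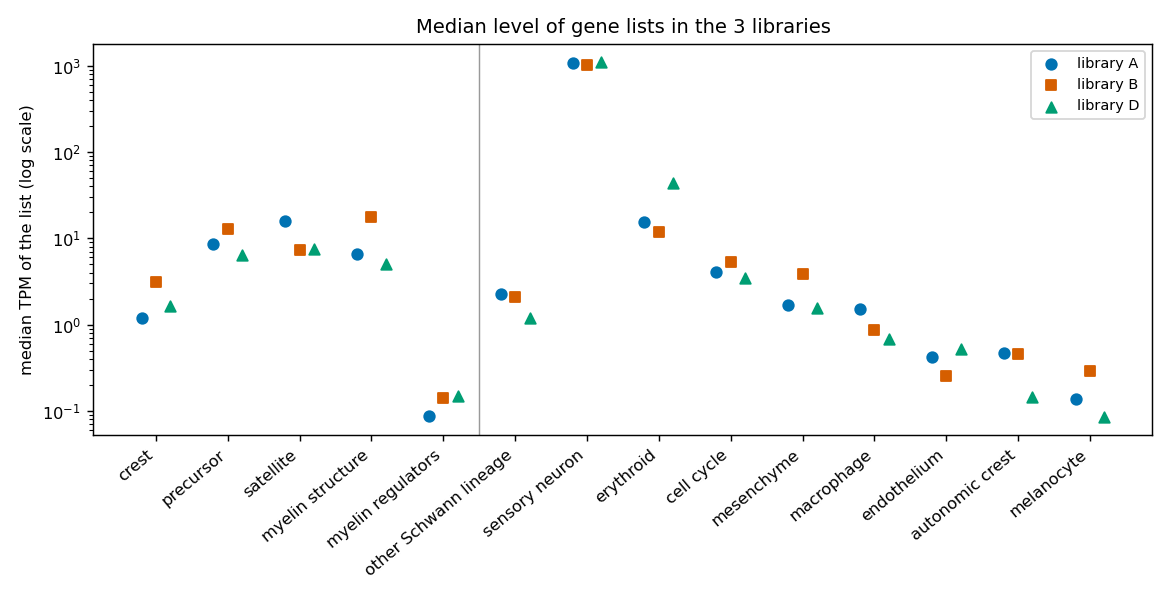
Median TPM of each gene list (vertical log axis) in libraries A, B and D, with groups of the members left of the line and other lists right of it. Central glia genes, with a median of 0 in every library, are not drawn. Sensory neuron genes lie between 1007 and 1111 TPM in all 3 libraries. The groups left of the line, other than the myelin regulators, lie between 1.18 and 17.6 TPM.

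The 3 libraries were then compared. A goodness-of-fit test in edgeR asked, for each gene with enough counts in every library, whether its counts differed between libraries by more than genes of its level. After Benjamini-Hochberg adjustment over 13530 genes, 24 (0.177%) passed 0.05, and none of the 21 members that had enough counts did. The other 12 members (Sox2, Foxd3, Tfap2c, Dhh, Metrn, Gfap, Egr2, Pou3f1, Pou3f2, Zfp488, Pmp2 and Gldn) were under the filter and were not tested. At an unadjusted p under 0.05 were 7 of the 21 members (33.3%), against 827 of all 13530 genes (6.11%). Because the members were chosen with earlier results of these data known, these shares do not test the set. These 7 were Moxd1, Fabp7, Apoe, Mal, Mag, Prx and Adam22. DESeq2 marked 0 of 32 members as dispersion outliers, against 18 of 24745 genes.

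Apoe had the smallest p among the members in edgeR (unadjusted 0.00059, adjusted 0.133). In log2 CPM (counts scaled to library totals corrected by TMM, which equalises the bulk of genes), it was higher by 1.80 in library B than the mean of A and D. Prx was also higher by 1.80 in B, and lower in D than the mean of the other libraries, with a difference of -2.08 (edgeR adjusted p = 0.386). Moxd1 differed by 1.76 in B and -1.54 in D (adjusted 0.601), Mag by 1.68 and -1.47 (adjusted 0.647), and Mal by 1.57 in B (adjusted 0.608). In library A, Adam22 differed by 1.51 (adjusted 0.353) and Ptprz1 by 0.90, and Fabp7 differed by 1.07 in D (adjusted 0.787). None of these passed the adjusted threshold.

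Removing the trend of library differences over gene length lowered the Fabp7 log2 difference in D from 1.07 to 0.64. A pair of settings changed the Apoe result. With the trend of library differences over gene length removed, Apoe passed in edgeR (adjusted p = 0.026, log2 difference in B 1.82). Without library D, in a comparison of A and B alone, it passed as well (adjusted p = 0.011, 1.73). In the same normalised scale the members' highest library was B for 14 of the 21 (66.7%), A for 3 (14.3%) and D for 4 (19.0%). Over all 13530 genes the shares were 28.7% for B, 34.3% for A and 37% for D.

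The median log2 difference of the 21 members was 0.57 in library B, -0.29 in A and -0.18 in D, against -0.01, 0.03 and -0.005 over all genes tested. By role, the median in B was 0.80 for the 3 crest genes tested, 0.83 for 7 myelin structure genes, 0.41 for 4 satellite genes, 0.34 for 3 precursor genes and -0.15 for the Lgi4 pathway. Highest in B were 3 of 3 crest genes and 5 of 7 myelin structure genes. The 15 other Schwann lineage genes tested, which are not members, had a median of 0.13 in B. Of those 15, 5 were highest in B, 6 in A and 4 in D. In TPM, Glul and Cmtm5 were also highest in B, whereas they were highest in D after TMM normalisation.

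**Figure D3:**
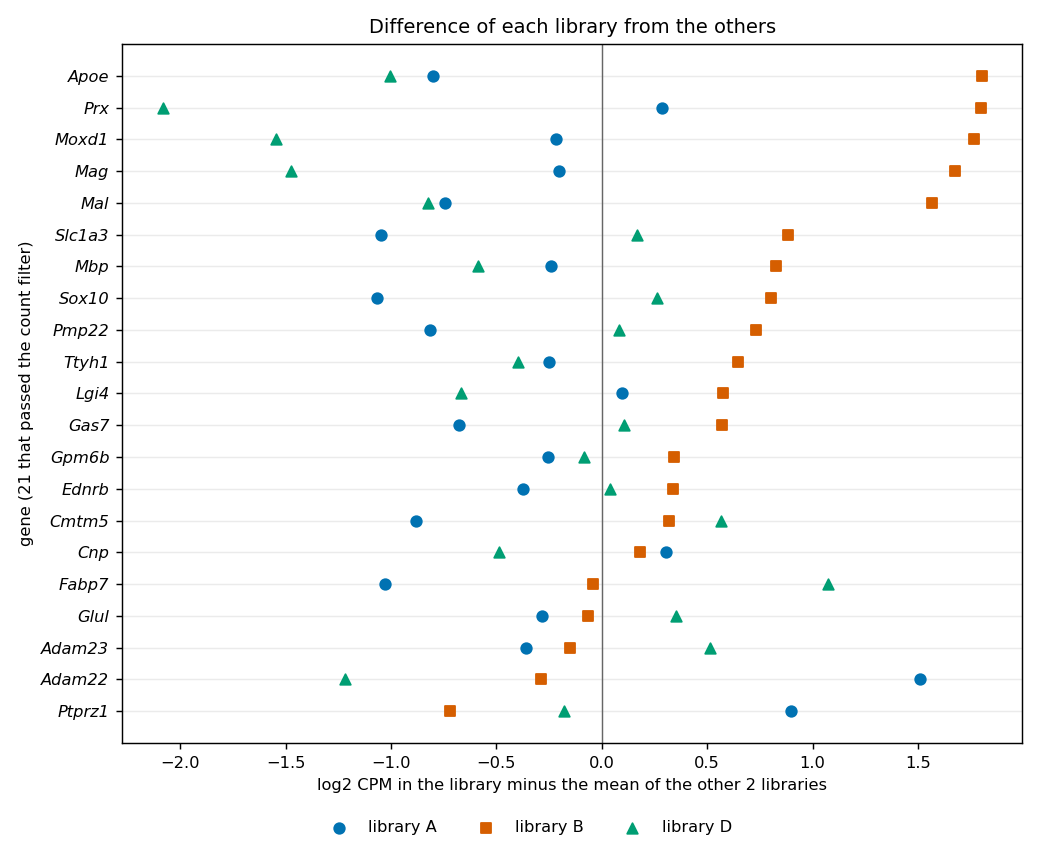
Difference of log2 CPM in each library from the mean of the other 2 libraries (horizontal axis) for the 21 members that passed the count filter, ordered by the difference of library B. Points right of the line at 0 are higher in that library than in the others. Apoe, Prx, Moxd1, Mag and Mal lie furthest right in library B, at 1.57 to 1.80, while Adam22 and Ptprz1 are highest in library A.

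Markers of other cells moved with this pattern in part. Of 7 mesenchyme genes tested, 4 were highest in B, and the median log2 difference over the 7 was 1.04. Among them Col1a1 had 28.4 TPM in B, against 3.68 in A and 2.32 in D (edgeR adjusted p = 5.81e-05). Cell cycle genes were highest in B for 6 of 10, in A for 2 and in D for 2 (median in B 0.36). The 2 that were highest in A, Mki67 and Cenpf, were lowest in B, with log2 differences of -1.14 and -2.17. Sensory neuron genes were highest in B for 2 of 12 (median -0.19). The part of the mesenchyme and cell cycle genes in the members' differences was not tested. Macrophages are known to express Apoe as well. Macrophage genes were highest in B for 0 of 3 tested, and the ratio of Apoe to the macrophage receptor gene Csf1r was largest in B (log2 5.59, 8.72 and 8.17 in A, B and D), on only 68, 27 and 14 counts of Csf1r. The part of macrophage genes was not tested. Erythroid genes were highest in D for 4 of 4 tested, with summed TPM of 304 in D, against 84.8 in A and 74.8 in B, and their part in the members high in D was not tested either. The pools also differed in the number and sex of their embryos, which cannot be told apart from the library. Without library B, 2 of 22 members were at an unadjusted p under 0.05 (9.09%), against 5.14% of genes.

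The members were also set against Sox10 within each library, an addition made after the values were seen. Of the 20 other tested members, 11 (55%) had a narrower range over the libraries as a ratio to Sox10 than alone, against 11.3% of 13529 genes and 2 of 15 other Schwann lineage genes (Sox5 and Ets1). Sox10 was lowest in A and highest in B, so the division itself narrows genes that vary in a like way and by enough. Slc1a3 had a 2.58-fold range alone and a 1.10-fold range relative to Sox10, with ratios of 0.0563, 0.0609 and 0.0554 in A, B and D. Pmp22 had a 2.03-fold range alone and 1.23-fold relative to Sox10.

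Other members became wider, among them the nearly level Glul, with a 1.10-fold range alone and a 2.16-fold range as a ratio to Sox10. Ptprz1 had a 2.13-fold range alone and a 5.07-fold range as a ratio to Sox10, Adam22 4.46-fold and 6.57-fold, and the neurotrophin receptor Ngfr 3.94-fold and 7.63-fold. Ptprz1, Adam22 and Ngfr were highest in library A, where Sox10 was lowest. Apoe, Prx, Mag, Moxd1 and Mal became narrower, yet still differed 2.37-fold to 5.89-fold between libraries relative to Sox10.

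**Figure D4:**
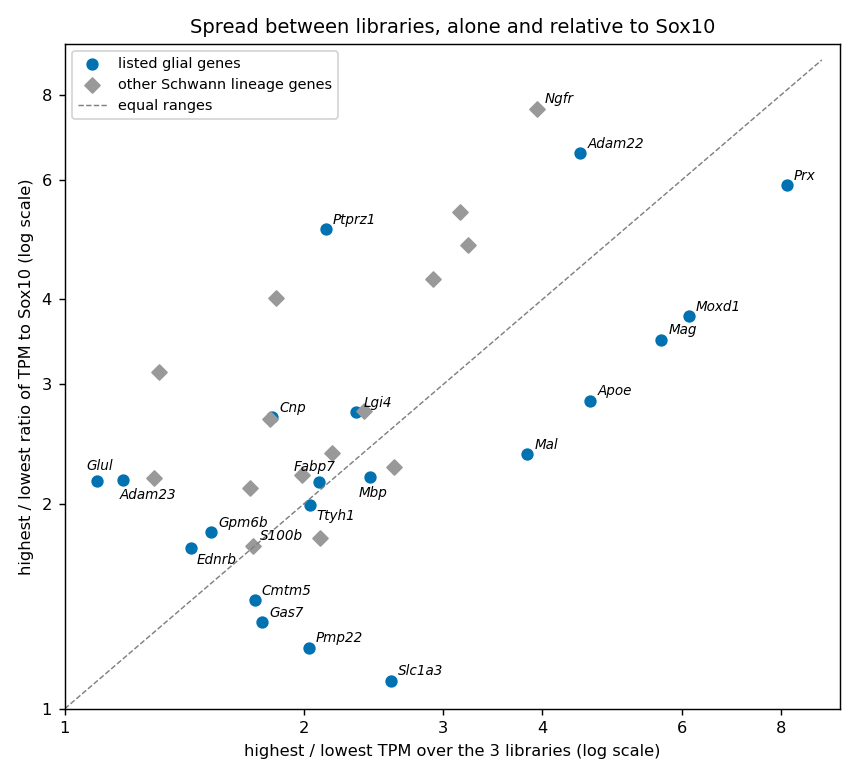
Fold range over the 3 libraries (highest over lowest) of TPM alone (horizontal log axis) and of the ratio of TPM to Sox10 (vertical log axis), for 20 members and 15 other Schwann lineage genes. Points under the dashed line vary less relative to Sox10 than alone. Slc1a3 and Pmp22 lie near the bottom, at 1.10-fold and 1.23-fold, and Ngfr, Adam22 and Ptprz1 lie above the line.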

How the data were processed

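RNA of sorted cells was measured in 3 pooled libraries. The labels' protocols describe amplification of 10 ng of RNA by a SMARTer Ultra Low Input kit, shearing and 12 cycles of PCR, without molecular identifiers. The tools named in the submitters' processing notes are Subread and featureCounts 1.4.5, and the build is GRCm38.p2. The settings for strand and multiply matching reads were not given in the sources used here. The authors deposited whole-number counts per gene with exon coordinates and lengths. The CPM they deposited was each count over its library's total, rescaled, and the deposited RPKM equalled that CPM per kilobase.

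TPM was computed from the deposited counts and lengths over all 41388 genes, of which 40254 matched a symbol. A count of 1 in a gene of 1 kilobase is worth 0.132, 0.126 and 0.0773 TPM in A, B and D. Ratios between genes or groups were taken within a library. Libraries were compared with edgeR 4.0.16 in R 4.3.3 (TMM, filterByExpr over 1 group, an intercept-only fit with trended dispersion, a deviance goodness-of-fit test, p-values adjusted by Benjamini-Hochberg over all genes, threshold 0.05). With 1 group, the quasi-likelihood test could not be used. The procedure was tested on simulated data. The common biological coefficient of variation was 30.3%. Differences in log2 CPM used a prior count of 2. DESeq2 1.42.0 was an alternative, and the rest ran in Python 3.11.15 (numpy 2.4.6, scipy 1.17.1, pandas 2.3.3, matplotlib 3.10.9). Coordinates are 1-based, from first to last exon.

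The members and lists were chosen with earlier results of these data known. All members are named, with the other lineage genes that had the 6 highest means or were under 1 TPM, and the highest and undetected genes of the other lists. Some lineage genes are not reported here. Alternatives were other thresholds, units, summaries, pseudocounts, member choices, normalisations, filters and dispersions, and leaving out each library.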

Additional observations from a re-analysis of the deposited data

How the results depend on the processing

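Members at 1 TPM numbered 24 at a threshold of 0.5 TPM, 18 at 2 TPM, 17 by RPKM, and 19 to 21 when a library was left out, against 20. The group contrasts depended on the summary and the members. Precursor over myelin (log2 2.96) became 1.30 as a mean of log2(TPM + 1) and -0.15 without Gpm6b, Ttyh1, Cnp, Mal and Apoe, which other cells also express. Satellite over myelin (3.05) became 1.17 as a mean of log2(TPM + 0.1) and 0.85 with a pseudocount of 1. With structure genes alone as myelin, the crest, precursor and satellite ratios were -2.21, 0.089 and 0.185. Crest over myelin (0.66) was -0.28 by CPM and -0.10 to 1.13 when a library was left out; the other contrasts ranged from 2.36 to 3.36 (precursor) and 2.39 to 3.92 (satellite). Genes that varied between libraries numbered 24, 55 with the length trend removed, and 7, 2 and 27 without A, B and D, where fewer samples remain. Members that varied numbered 1, Apoe, with the length trend removed and 0 to 1 when a library was left out. The members' median log2 difference in B ranged from 0.46 to 0.68 over those omissions. In A it ranged from -0.68 (without D) to 0.03 (without B) and in D from -0.46 (without A) to -0.03 (without B). By CPM, 1 of the 11 pairs, Adam23 over Adam22, no longer kept its sign in every library. No mean changed sign, but the log2 ratios to Mbp shrank to 0.83 for Pmp22, 1.401 for Cnp and 1.99 for Fabp7. The cause of these changes was not tested beyond what each construction shows. No paired analysis was possible because there is 1 group. Genes with under 10 counts in a library, among them Dhh, Foxd3, Gfap and Pou3f1, are limited by depth.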
